A study of Mus musculus with 32 samples.

Results

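The genes described here encode Kat2a, its paralogue Kat2b and 8 subunits of the SAGA and ATAC complexes in which these acetyltransferases work, and the data are histone marks at these genes in mouse acute myeloid leukemia. The 10 members (Kat2a, Kat2b, Tada1, Supt20, Tada2b, Tada3, Tada2a, Yeats2, Zzz3 and Mbip) were taken by name as subunits of SAGA or ATAC, out of 21938 protein-coding genes of the GENCODE M21 annotation on chromosomes that carried peaks. Each was matched to 1 gene. Primary leukemias driven by MLL-AF9 were profiled by ChIP-seq for H3K9ac, H3K4me3, H3K27ac and H3K4me1, with 2 replicates of each mark in each genotype, which gives 16 ChIP libraries. All donor mice carried the floxed allele, as Kat2a Flox/Flox, and all were treated with pIpC, an inducer of interferon. WT donors were Mx1-Cre -/- and KO donors were Mx1-Cre +/-, and the Mx1 promoter responds to interferon. Lineage-depleted bone marrow of these donors was transduced with a retrovirus carrying MLL-AF9 and transplanted into irradiated recipients, and total bone marrow was collected at terminal disease, so host cells may be included. The WT pool combined 5 animals and the KO pool combined 4. The replicates of a genotype come from 1 pool, so their spread leaves out the variation between leukemias and may be technical. Each H3K9ac or H3K4me3 library started from 5000000 cells and each H3K27ac or H3K4me1 library from 500000 cells.

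SAGA and ATAC are multi-subunit coactivators that bring Kat2a or Kat2b, which occupy the same place in either complex, to promoters and enhancers. Both enzymes acetylate histone H3, with H3K9 as the best known residue, whereas H3K27 is mainly acetylated by p300 and CBP. Tada3 and a Tada2 protein hold the enzyme in a module that raises its activity on nucleosomes. H3K4me3 and H3K9ac mark active promoters, H3K27ac marks active promoters and enhancers, and H3K4me1 marks enhancers and the flanks of promoters.

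Each library is a list of peaks, and each peak has a fold enrichment, the ratio of signal to local background at its summit as the authors computed it. The lists reach a p of 0.01 and are thus looser than the q-value of 0.05 that the study states for its peaks, so a listed peak need not pass that threshold. Read counts are not given, which leaves the depth of a library unknown, and a gene without a listed peak cannot be given an upper limit. There were 27657 to 33605 peaks in the H3K9ac libraries and 15685 to 23297 in the H3K4me3 libraries. Replicate 1 stood apart for the other marks. Its H3K27ac lists hold 26791 peaks in WT and 2725 in KO, of which 13 and 0 have a q-value of at most 0.05, and its H3K4me1 lists hold 5368 and 27423 peaks, of which 0 and 5 do. The study left out 1 replicate of either mark without naming it. H3K27ac and H3K4me1 are therefore described from replicate 2, with 29757 and 46047 H3K27ac peaks and 45770 and 78042 H3K4me1 peaks in WT and KO, and replicate 1 is given beside it.

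Most myeloid genes looked at carried promoter marks, and lymphoid genes had no H3K9ac. Of 9 genes of the leukemia and of myeloid progenitors, 6 had H3K9ac and H3K4me3 promoter peaks in all 8 libraries of these marks, among them Hoxa9, Meis1 and Spi1. Mpo, Elane and Itgam did not. Mpo lacked H3K9ac in KO replicate 1 and H3K4me3 in both KO libraries. Elane lacked H3K9ac in KO replicate 1 and H3K4me3 in replicate 2 of WT and of KO. Itgam lacked H3K4me3 in WT replicate 2. None of 4 B lymphoid and 3 T lymphoid genes had an H3K9ac promoter peak in any library, although Pax5 and Ebf1 had H3K4me3 in 1 library each. Of 3 erythroid genes, Gata1 had none, and Klf1 had an H3K9ac promoter peak in WT replicate 1 (5.01) and KO replicate 2 (2.73). Epor had one in both KO libraries (2.67 and 3.29) and in neither WT library. Among 4 genes of stroma and endothelium, Cdh5 and Cxcl12 had no H3K9ac promoter peak, Cxcl12 had H3K4me3 in 4 libraries, Pdgfra had H3K9ac in 1 library, and the collagen gene Col1a1 had it in all 4 libraries with fold enrichments of 2.75 to 4.14.

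All 10 members carried H3K9ac and H3K4me3 at their promoters in both genotypes. A promoter peak was one that overlapped the window from 1 kb upstream to 500 bp downstream of any TSS of the gene. H3K9ac was listed there in all 4 libraries for 10 of 10 members, beside 49.4% of all protein-coding genes. For H3K4me3 the same held for 10 of 10 members, beside 46.7% of all genes. H3K27ac was listed in replicate 2 of both genotypes for 9 of 10 members, beside 43.9% of all genes, and the exception was Tada2a. H3K4me1 overlapped the promoter window in replicate 2 of both genotypes for 0 of 10 members, beside 14.4% of all genes. The KO library alone, the longest list of all, had one at 6 members (Kat2a, Kat2b, Tada2b, Tada3, Yeats2 and Zzz3), with fold enrichments of 2.52 to 4.78, beside 37.2% of all genes. The Kat2b peak there lies at an internal start, 17239 bp from the outermost TSS. The summits at Kat2a and Tada2b lie at -1087 and -1262 bp from the outermost TSS, beyond the 1 kb upstream of it. Those at Tada3, Yeats2 and Zzz3 lie at 831, 1080 and -310 bp. In these bulk samples, fewer marked cells and less mark per cell cannot be told apart.

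**Figure D1:**
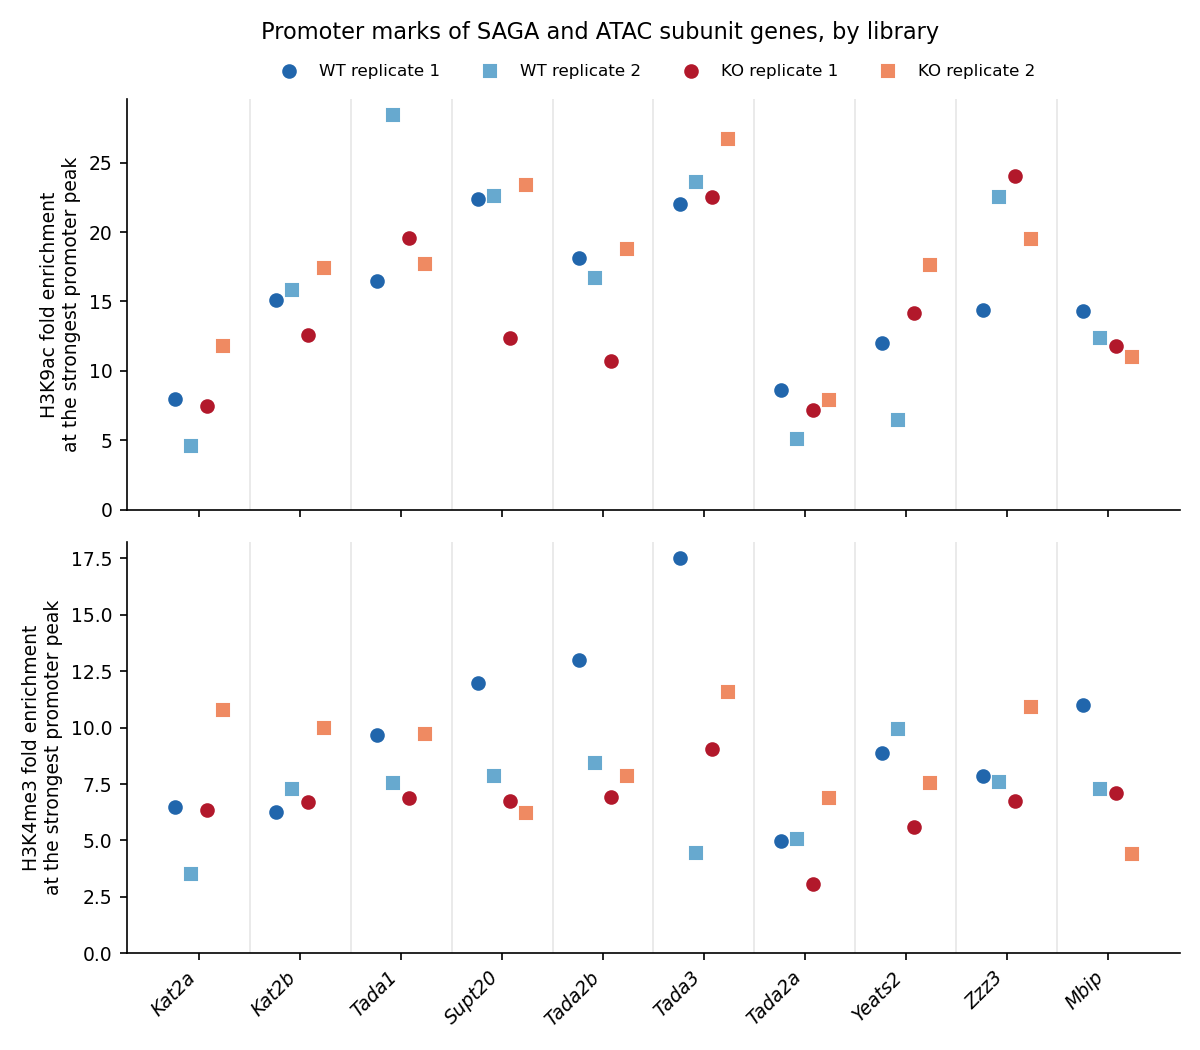
Fold enrichment (no unit) of the strongest H3K9ac (top) and H3K4me3 (bottom) promoter peak of each member, 1 point per library, circles for replicate 1 and squares for replicate 2. Kat2a (4.58 to 11.8) and Tada2a (5.09 to 8.66) have the lowest H3K9ac values in 3 libraries, and in KO replicate 2 Mbip lies below Kat2a.

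Kat2a, the deleted enzyme, and Kat2b, its paralogue, differed from each other in both genotypes. Kat2a lies on the minus strand of mm10 at chr11:100704746-100712465. Its strongest H3K9ac promoter peak had fold enrichments of 8 and 4.58 in WT and 7.48 and 11.8 in KO. Kat2b lies on the plus strand at chr17:53566861-53672720, and its H3K9ac peak reached 15.1 and 15.8 in WT and 12.6 and 17.4 in KO. In every library Kat2b was above Kat2a. The peaks differed in width too. Kat2a had H3K9ac peaks of 553 and 609 bp in WT and of 449 and 777 bp in KO. Those of Kat2b spanned 2714 and 2482 bp in WT and 2449 and 2784 bp in KO. Ranked by width among all genes with an H3K9ac promoter peak in the same library, Kat2a stood between percentiles 9.9 and 24.6 and Kat2b between 88.7 and 94.3.

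The upstream sequences of the genes show how far the acetylated stretch reached in all libraries within the 250 bases before the start in RefSeq (GRCm38.p6). They are read 5′ to 3′ on the strand of the gene, with capitals for bases inside an H3K9ac peak in all 4 libraries. Kat2a and Kat2b are shown as the deleted gene and its paralogue, and Yeats2 because its H3K9ac difference was the largest of the members.
Kat2a, chr11:100712468-100712717, minus strand: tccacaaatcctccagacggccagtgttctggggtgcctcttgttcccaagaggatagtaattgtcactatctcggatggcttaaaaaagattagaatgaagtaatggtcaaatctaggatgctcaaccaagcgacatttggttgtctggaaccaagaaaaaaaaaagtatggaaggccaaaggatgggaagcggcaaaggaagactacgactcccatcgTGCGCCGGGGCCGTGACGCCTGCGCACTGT
Kat2b, chr17:53566721-53566970, plus strand: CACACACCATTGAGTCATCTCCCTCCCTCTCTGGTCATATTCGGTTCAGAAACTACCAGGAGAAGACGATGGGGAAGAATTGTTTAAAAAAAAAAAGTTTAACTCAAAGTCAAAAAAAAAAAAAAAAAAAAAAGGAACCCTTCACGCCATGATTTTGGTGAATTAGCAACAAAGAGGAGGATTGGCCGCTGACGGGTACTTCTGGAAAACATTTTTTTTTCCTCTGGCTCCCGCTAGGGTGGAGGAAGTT
Yeats2, chr16:20140813-20141062, plus strand: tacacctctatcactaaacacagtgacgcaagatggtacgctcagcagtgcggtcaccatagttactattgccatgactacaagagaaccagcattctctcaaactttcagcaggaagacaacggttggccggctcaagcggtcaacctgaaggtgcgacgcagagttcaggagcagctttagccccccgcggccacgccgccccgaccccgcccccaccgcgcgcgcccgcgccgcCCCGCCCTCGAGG
Common to all 4 libraries were the 30 bases next to the start at Kat2a, 13 bases at Yeats2 and all 250 bases at Kat2b. Part of the Kat2b stretch lies in an exon of a non-coding Kat2b transcript.

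Sequence features of the promoters were read for the 9 of 10 members found in the RefSeq table. The missing entry is Tada1. The median ratio of observed to expected CpG was 0.81 over these members and 0.37 over all 32817 upstream sequences of that length. It ranged from 0.22 at Mbip to 1.07 at Tada2b. A search of both strands for 5 short strings found GGGCGG, the GC box, in 5 of 9 members and in 32.7% of all promoters. The CCAAT box, written CCAAT, was in 4 of 9 members and 33.8% of all promoters. CACGTG, the E-box bound by Myc, was in 1 member, Tada2a, and 6.02% of all promoters, and CCGGAAG, a core bound by Ets factors, was in 1 member, Tada2b, and 6.90% of all. TATAAA was in 0 of 9 members and 12.4% of all promoters. Kat2a and Tada3 held none of the 5 strings. None of the strings contains another, and a match is a description, not a site or a cause.

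H3K4me3 at Kat2a and Kat2b was less far apart. Kat2a had fold enrichments of 6.50 and 3.52 in WT and 6.36 and 10.8 in KO. Kat2b had 6.28 and 7.27 in WT, against 6.71 and 10 in KO. Kat2a was above Kat2b in WT replicate 1 and KO replicate 2, and below it in the other libraries. H3K27ac in replicate 2 again separated them, with 4.38 in WT and 5.07 in KO at Kat2a and 7.50 in WT and 11 in KO at Kat2b. Replicate 1 listed no H3K27ac promoter peak at either gene.

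H3K9ac at Tada1, Supt20, Tada2b and Tada3 stood between percentiles 56.6 (Tada2b) and 97.5 (Tada1) of all marked genes of the same library. Tada1 (chr1:166379097-166393621), part of the core of SAGA, had fold enrichments of 16.5 and 28.4 in WT and 19.6 and 17.7 in KO. Supt20 (chr3:54692807-54728766), another core subunit, had 22.4 and 22.6 in WT and 12.4 and 23.4 in KO. Tada2b (chr5:36473670-36484285), the adaptor that holds the acetyltransferase module of SAGA, had 18.1 and 16.7 in WT and 10.7 and 18.8 in KO. For Supt20 and Tada2b, KO replicate 1 was the low library, also after each library was centred on its median. Tada3 (chr6:113366025-113377883), the adaptor shared by SAGA and ATAC, had 22.0 and 23.6 in WT and 22.5 and 26.7 in KO. Its peak of 2796 to 2994 bp was also the widest among the members in each of the 4 libraries. The start of Tada3 lies 232 bp from that of Arpc4, an actin regulator read in the opposite direction, and both genes had the same strongest H3K9ac peak in all 4 libraries. The same was true of Tada2b and Ccdc96, whose starts are 303 bp apart.

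Among the ATAC subunits, the level ranged from the lowest to among the highest of the members. Tada2a (chr11:84078920-84129600), the adaptor of the ATAC module, had H3K9ac fold enrichments of 8.66 and 5.09 in WT and 7.21 and 7.90 in KO. These stood between percentiles 14.4 and 38.3 of all marked genes of the same library. The start of Tada2a is 72 bp from that of Acaca, an enzyme of fatty acid synthesis transcribed the other way, where the strongest H3K9ac peak was a different one with 13.1 and 9.51 in WT and 11.1 and 13.3 in KO. Yeats2 (chr16:20141063-20232573), whose YEATS domain reads acylated histone H3, had 12 and 6.45 in WT and 14.2 and 17.6 in KO. Zzz3 (chr3:152395473-152462826), a reader of the histone H3 tail, had 14.4 and 22.5 in WT and 24.0 and 19.5 in KO. Its strongest H3K9ac summit lay 222 bp from the outermost TSS in WT replicate 1 and 1048 to 1084 bp from it, at internal starts, in the other libraries. Mbip (chr12:56328303-56345894), which helps to assemble ATAC, had 14.3 and 12.4 in WT and 11.8 and 11 in KO, and its region held no H3K4me1 peak in any library.

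**Figure D2:**
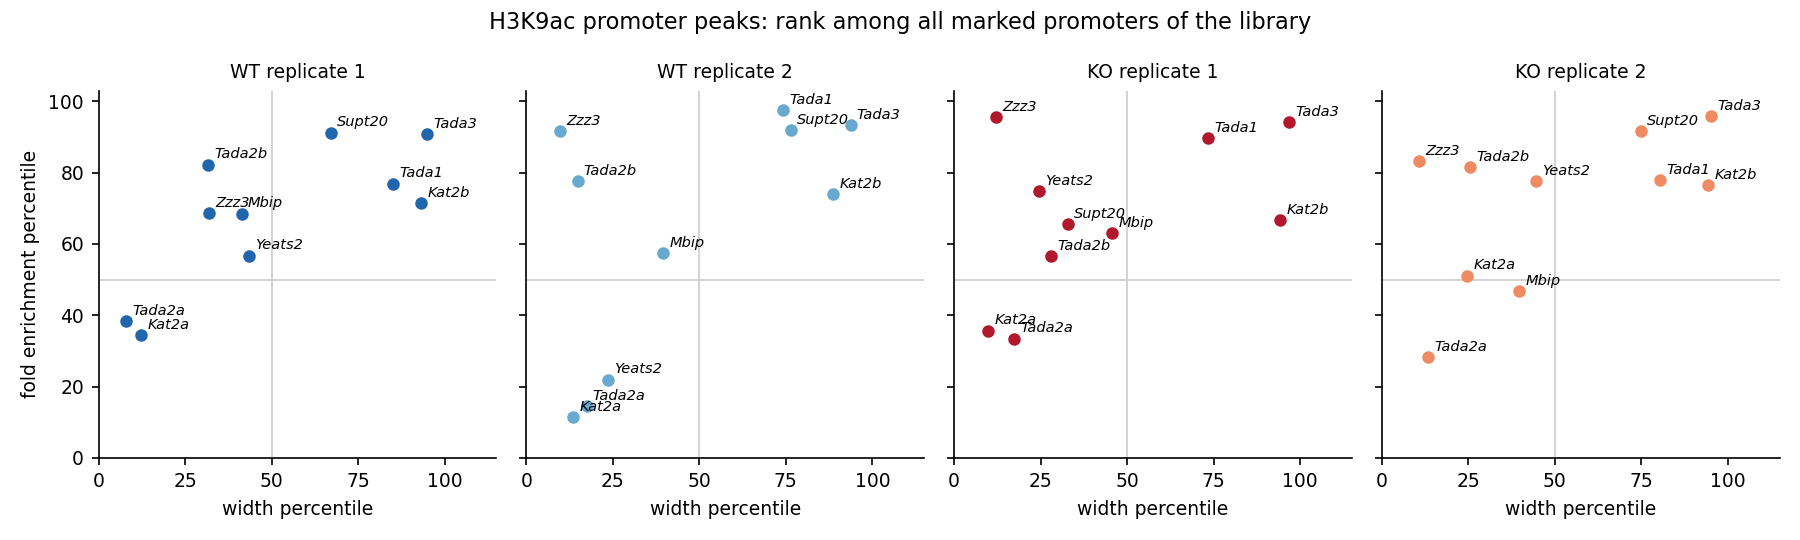
Percentile of each member by width (x axis, percent) and by fold enrichment (y axis, percent) of its strongest H3K9ac promoter peak, among all genes with such a peak in the same library, 1 panel per library and 1 point per member. Kat2b and Tada3 lie on the right and in the upper part of each panel, and Kat2a, Tada2a and, in 3 panels, Zzz3 toward the left. Kat2a lies between width percentiles 9.9 and 24.6. Tada2b also lies toward the left in WT replicate 2 (14.8, against 17.4 for Tada2a) and beside Kat2a in KO replicate 2 (25.6).

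For H3K9ac, 7 or 8 of the 10 members stood above percentile 50 of all marked promoters in each library. Tada2a was below it in all 4 libraries and Kat2a in 3. The median percentile of the 10 members was 70.1 and 75.7 in WT and 66.1 and 77.7 in KO. For H3K4me3 it was 58.2 and 74.1 in WT and 59.8 and 65.0 in KO. H3K27ac in replicate 2 gave 64.2 over 9 members in WT and 56.1 over 10 members in KO.

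Whether Kat2a loss was accompanied by a change of H3K9ac or H3K4me3 at these promoters was tested with limma across all genes with a peak in all 4 libraries of the mark. The value of a gene was its strongest promoter peak in each library, which could lie at different starts of the gene, as at Zzz3. Each library was first centred on its median. No member passed an adjusted p of 0.05 for H3K9ac, nor did any other of the 10837 genes tested, a share of 0%. Unadjusted p was under 0.05 for 393 genes, of which 1 was a member, Yeats2. For H3K4me3, 0 of 10 members and 0% of 10247 genes passed, and 563 genes had an unadjusted p under 0.05, of which 1 was a member, Kat2a. A p that misses the threshold does not show that the values did not differ. The median difference of KO minus WT over the members was 0.11 on the log2 scale for H3K9ac, beside 0.01 over all genes. It was 0.02 without WT replicate 1, beside 0.00, and 0.02 without centring, beside -0.08. For H3K4me3 it was -0.04, beside 0.00, but -0.27 without WT replicate 1 and 0.19 without KO replicate 1. With H3K9ac, 6 members were higher in KO and 4 lower, beside 51.4% of all genes higher, but 5 and 5 without centring, beside 41%, and 8 and 2 without KO replicate 1. With H3K4me3, 4 were higher and 6 lower, beside 50.4% of all genes higher, but 6 and 4 without KO replicate 1 and 2 and 8 without WT replicate 1. Without WT replicate 1, 2 genes passed for H3K9ac, neither of them a member.

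After centring, Kat2a was higher in both KO libraries than in both WT libraries for H3K9ac and for H3K4me3. Before it the groups overlapped, since the fold enrichment of KO replicate 1 was below that of WT replicate 1 for either mark. The centred log2 values of H3K9ac were -0.53 and -1.35 in WT, against -0.40 and -0.03 in KO. The centred groups do not overlap, but the WT replicates are 0.82 apart, more than the difference between the means of 0.72 (SE 0.38, n = 2 per genotype, limma adjusted p = 1). Without WT replicate 2 the difference was 0.32, and without WT replicate 1 it was 1.13. For H3K4me3 the centred values were -0.50 and -0.77 in WT, against -0.01 and 0.44 in KO, with a difference of 0.85 (SE 0.36, n = 2 per genotype, limma adjusted p = 0.875). Here the replicates were 0.27 and 0.45 apart, less than the difference. As the start, exon 1 and exon 2 of Kat2a stay in place in the excised allele, this promoter is present in both genotypes.

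Kat2b did not move with genotype by more than its replicate spread in H3K9ac. Centred log2 values were 0.38 and 0.44 in WT, against 0.34 and 0.52 in KO. The KO libraries lay on both sides of the WT libraries, and the difference was 0.02 (SE 0.36, n = 2 per genotype, limma adjusted p = 1), which turned to -0.07 when the libraries were not centred. In H3K4me3, WT stood at -0.55 and 0.28 and KO at 0.06 and 0.33. The WT replicates were 0.83 apart and the difference was 0.34 (SE 0.37, limma adjusted p = 0.958), which turned to -0.08 without WT replicate 1, was at 0.75 without WT replicate 2 and was 0.00 with the outermost TSS alone.

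In centred values, both KO libraries were above both WT libraries for 3 members in H3K9ac (Kat2a, Tada3 and Yeats2), beside 16.6% of all genes, and both were below for 0 members, beside 14.6%. In H3K4me3 they were above for 1 member (Kat2a), beside 17.1%, and below for 4 (Tada2b, Supt20, Yeats2 and Mbip), beside 17.6%. Without centring, Tada3 overlapped between the genotypes for H3K9ac as Kat2a did, and Mbip was lower in both KO libraries than in both WT libraries. Yeats2 had its KO libraries on opposite sides for the 2 marks. The centred H3K9ac values of Yeats2 were 0.05 and -0.86 in WT, against 0.52 and 0.54 in KO, a difference of 0.93 (SE 0.38, limma adjusted p = 1), and 0.48 without WT replicate 2. Its H3K4me3 values were -0.06 and 0.73 in WT, against -0.20 and -0.08 in KO, a difference of -0.47 (SE 0.37, limma adjusted p = 0.927), with -0.08 without WT replicate 2 and -0.86 without WT replicate 1. WT replicate 2 was thus the low library for H3K9ac and the high library for H3K4me3. Mbip had the lowest H3K4me3 difference, at -0.62 (SE 0.38, limma adjusted p = 0.909), with centred values of 0.26 and 0.28 in WT and 0.15 and -0.86 in KO. Without KO replicate 2 the difference was -0.12, and without KO replicate 1 it was -1.13.

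**Figure D3:**
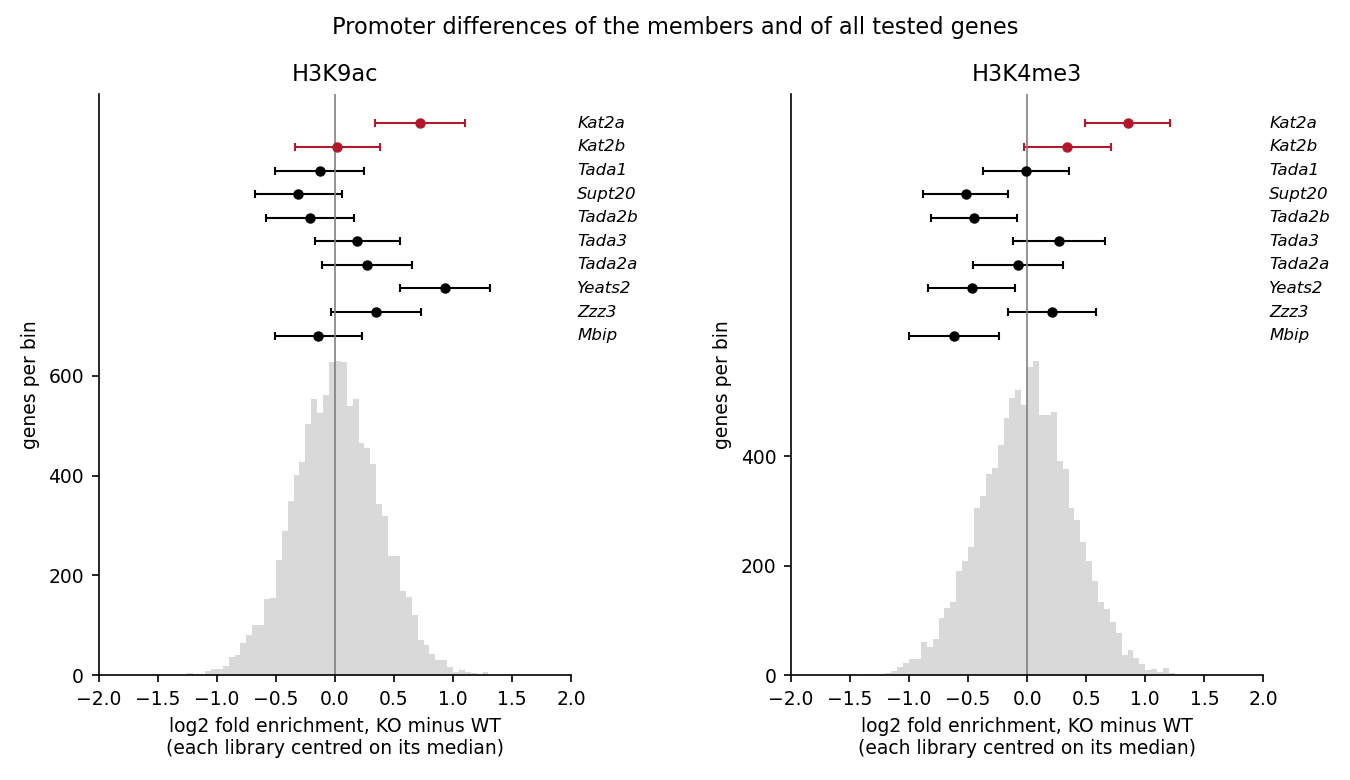
Difference in log2 fold enrichment (KO minus WT, x axis) at the promoters of the members, shown as points with bars of 1 SE from limma, above a histogram of all tested genes (y axis, genes per bin), for H3K9ac on the left and H3K4me3 on the right. Kat2a and Kat2b are red, and the H3K9ac points reach from -0.31 at Supt20, where the difference was 0.00 without KO replicate 1 and -0.63 without KO replicate 2, to 0.93 at Yeats2, where it was 0.48 without WT replicate 2.

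H3K27ac had 1 usable library per genotype, so no test was made. The fold enrichment was higher in KO for 9 of the 9 members with a peak in both, and so it was for 82.1% of 9634 genes. The median log2 ratio of KO to WT was 0.45 over these members and 0.46 over all genes. Mbip had the largest ratio of the members, 0.72, from 5.39 in WT to 8.87 in KO, and Supt20 the smallest, 0.15, from 8.11 to 8.98.

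Tada2a changed class by its H3K27ac peak. H3K4me3 and H3K9ac were listed at its promoter in both replicates of both genotypes. In KO replicate 1 the strongest H3K4me3 peak had a fold enrichment of 3.05 and lay inside Acaca. Its summit was at -249 bp from the outermost TSS of Tada2a, against 293 to 449 bp in the other libraries. That peak did not reach a q-value of 0.01. H3K27ac was absent from replicate 2 of WT and present in replicate 2 of KO, with a fold enrichment of 4.35 at percentile 13 of the marked genes. The same pattern, H3K4me3 and H3K9ac without H3K27ac in WT and with it in KO, was found for 682 genes, or 3.11% of all. These are 682 of the 1193 genes that had H3K4me3 and H3K9ac without H3K27ac in WT, and the KO list is the longer of the pair. A WT peak of 77 bp in replicate 1, at a fold enrichment of 2.77, lies 42588 bp downstream at an internal start of Tada2a.

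The stretch of Kat2a between exon 2 and the last exon was nearly free of listed peaks in both genotypes. It stands in for the stretch that Cre removes, since the positions of the loxP sites are not given and its edges may lie outside them. Both coding transcripts have 18 exons, and excision joins exons 1 and 2 to the last one. The interval between them covers chr11:100705432-100711812, or 6381 bp, and holds 1848 of the 2487 coding bases of the first transcript, a multiple of 3. No H3K9ac or H3K4me3 peak overlapped it in any of the 4 WT or 4 KO libraries. In KO replicate 2, an H3K27ac peak covered 153 bp and an H3K4me1 peak covered 111 bp at its edge next to the promoter, the first of them not listed when the lists were brought to equal length, and no peak lay wholly inside the interval in any library. The H3K9ac promoter peak ended 513 and 529 bp after the start in WT and 416 and 585 bp after it in KO, whereas the interval begins at 653 bp. As WT has no peak there, the lists cannot check the genotype labels.

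**Figure D4:**
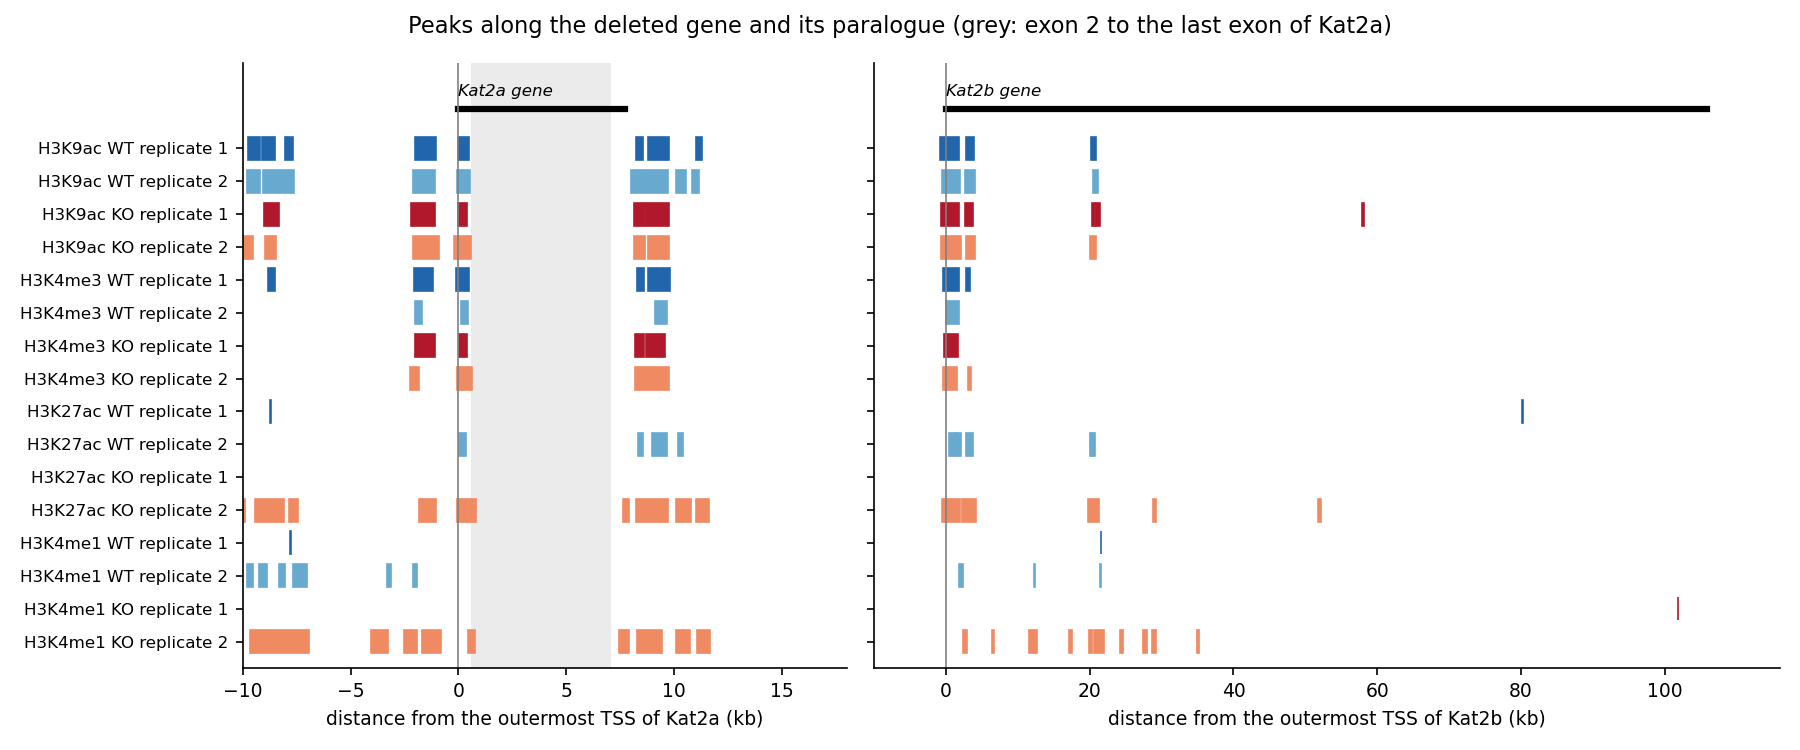
Peaks of all 16 libraries (rows) by distance from the outermost TSS (x axis, kb) along Kat2a on the left and Kat2b on the right, with blue bars for WT and red bars for KO and a black line for the gene. The grey interval between exon 2 and the last exon of Kat2a is empty except for its edge in KO replicate 2 of H3K27ac and H3K4me1, and a cluster near 20 kb in Kat2b appears in all H3K9ac libraries.

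Peaks around Kat2a belong in part to its neighbours. Dhx58, a regulator of RNA sensing, starts 475 bp beyond the 3′ end of Kat2a, and its promoter had H3K9ac of 4.81 and 6.59 in WT and 4.67 and 8.93 in KO. Hspb9 starts 1385 bp from Kat2a and had 4.03 and 5.23 in WT and 5.88 and 5.99 in KO. Rab5c, a GTPase of endosomes, ends 2544 bp from Kat2a, and its own promoter had 16.1 and 21.1 in WT and 20.4 and 16 in KO. A cluster inside Rab5c, chr11:100719402-100722972, upstream of Kat2a, overlapped no promoter window. It held H3K9ac at 4.45 and 5.74 in WT, against 2.85 and 3.76 in KO. H3K4me3 was listed there in WT replicate 1 only, and H3K27ac in replicate 2 of KO and not of WT. Dhx58os, an antisense gene, had no promoter peak in any library.

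Kat2b carried acetylation inside the gene. A cluster from 19773 to 22027 bp after the outermost TSS, chr17:53586634-53588888, overlapped no promoter window of any gene. H3K9ac there had fold enrichments of 3.88 and 2.39 in WT and 4.27 and 4.46 in KO. H3K27ac in replicate 2 had 4.31 in WT and 5.07 in KO, and H3K4me1 in replicate 2 had 3.41 in WT and 4.50 in KO, whereas H3K4me3 was absent from all 4 libraries. The H3K4me1 peak in WT did not reach a q-value of 0.05. A nearer cluster, 1583 to 4152 bp after the TSS, had H3K9ac of 5.44 and 9.21 in WT and 3.48 and 5.53 in KO. The gene body with 10 kb on either side was covered by H3K9ac over 4588 and 4475 bp in WT and 4759 and 4753 bp in KO. Both KO libraries were above both WT libraries, by 224 bp in the mean (two-sided exact permutation p = 0.33, the smallest that 2 against 2 libraries allow). With peaks at a q-value of at most 0.01 the groups overlapped, at 4588 and 3856 bp in WT and 4759 and 4516 bp in KO (difference 416 bp, exact permutation p = 0.67), and with lists of equal length the difference was 534 bp. Kat2b was the only member with more cover in both KO libraries than in both WT libraries. Kat2a, Tada3, Zzz3 and Mbip had less in both KO libraries, and the share over all genes was not measured. The cover of the Kat2a region includes peaks of its neighbours. Over the regions of all 10 members together the cover was lower in KO, at 29711 and 29064 bp in WT, against 25229 and 28123 bp in KO. The WT lists are also the longer. The Kat2b region held 3 and 3 H3K9ac peaks in WT and 5 and 4 in KO. H3K4me1 in replicate 2 had 3 peaks there over 983 bp in WT and 10 peaks over 5963 bp in KO, of which 0 and 8 reached a q-value of 0.05. Over the genome 34.3% of the WT peaks and 83.6% of the KO peaks did, and the KO list is also the longer. Sgo1, a protector of cohesin that ends 2066 bp beyond Kat2b, had H3K9ac of 16.3 and 18 in WT and 12.9 and 19.8 in KO at its own promoter, and the pseudogene Gm6919 inside Kat2b had no promoter peak.

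Supt20 was the other member with such an intragenic cluster, 14970 to 17509 bp after its TSS at chr3:54707777-54710316. H3K9ac there was 5.31 and 4.50 in WT and 5.07 and 6.06 in KO. In replicate 2, H3K27ac was 4.09 in WT and 6.95 in KO, and H3K4me1 was 2.33 in WT and 3.82 in KO. Again H3K4me3 was not listed. These are the clusters within a member that lay more than 5 kb from its TSS and outside promoters, with H3K9ac in all 4 libraries and at least 3 marks. The 200 bases around their strongest H3K9ac summit, in KO replicate 2 at both genes, are shown because H3K9ac and H3K27ac peaks of both genotypes lie over them (GRCm38.p6, plus strand, the strand of both genes).
Kat2b, chr17:53587490-53587689: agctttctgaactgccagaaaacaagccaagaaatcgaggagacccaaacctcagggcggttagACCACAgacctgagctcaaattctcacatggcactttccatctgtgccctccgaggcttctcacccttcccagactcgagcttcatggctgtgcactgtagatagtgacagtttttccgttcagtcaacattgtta
Supt20, chr3:54709304-54709503: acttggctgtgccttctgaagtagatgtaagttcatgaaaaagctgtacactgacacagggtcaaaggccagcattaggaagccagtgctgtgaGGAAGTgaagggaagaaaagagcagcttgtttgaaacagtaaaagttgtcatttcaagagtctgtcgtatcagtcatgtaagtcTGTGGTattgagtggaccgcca
Capitals mark GGAAGT, a core bound by Ets factors such as PU.1, and TGTGGT, the core bound by Runx factors, on either strand, where ACCACA is TGTGGT read on the other strand. The Kat2b stretch held the Runx core, and the Supt20 stretch held both. GGAAGT was found in 14.9% and TGTGGT in 16.3% of 13406 stretches of equal length around H3K9ac summits outside promoters in KO replicate 2. AGATAA, the Gata core, and TTGCA, part of the Cebp site, were in neither stretch, against 8.32% and 26.2% of those stretches. The first bases of the Supt20 stretch belong to a coding exon, and the Kat2b stretch is intronic.

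Counted over all 10 regions of gene body with 10 kb on either side, H3K9ac had 32 and 29 peaks in WT and 29 and 29 in KO. Outside promoter windows it had 10 and 10 in WT and 6 and 8 in KO, and the WT lists are also the longer over the genome. Of these, the WT libraries had 4 and 4 in the Kat2a region, against 1 and 2 in the KO libraries. No such peak lay within Kat2a itself in any library, and all were inside its neighbours Dhx58 or Rab5c. How many genes show a difference of this kind was not measured. In the Kat2b region the WT libraries had 2 and 2 and the KO libraries 4 and 3, all within the gene. H3K4me1 in replicate 2 had 25 peaks outside promoters in WT and 36 in KO, of a list of 45770 and of 78042 peaks. Of all H3K4me1 peaks in the regions, 11 of 29 in WT and 45 of 54 in KO reached a q-value of 0.05. The peaks outside promoters lay mostly in the regions of 5 genes. The Kat2a region had 5 in WT and 4 in KO, none of them within Kat2a itself. The regions of the other genes had 3 and 9 (Kat2b), 7 and 3 (Tada2b), 6 and 8 (Supt20) and 2 and 7 (Zzz3). Replicate 1 of H3K4me1 had 5 such peaks in WT and 8 in KO, and none of them reached a q-value of 0.05.

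Of 24 other SAGA and ATAC subunits, 23 had H3K9ac and H3K4me3 promoter peaks in all 4 libraries of either mark. The shares over all genes were 49.4% and 46.7%. The exception was Sf3b5, a splicing factor subunit also found in SAGA, which had no promoter peak in any of the 16 libraries. With the outermost TSS alone the count was 21 for either mark. H3K27ac was listed in replicate 2 of both genotypes for 22 of the 24 subunits, beside 43.9% of all genes. Apart from Sf3b5 it was missing at Taf9b, a gene named after its values were seen. None of the 23 passed the limma test for either mark. Their median difference on the log2 scale was -0.04 for H3K9ac and 0.11 for H3K4me3, beside 0.01 and 0.00 over all genes. At some of these subunits the strongest peak lay at different starts in different libraries, so their differences compare different sites. With 1 library left out the medians of these subunits ran from -0.08 (without WT replicate 1) to 0.02 (without WT replicate 2) and from 0.05 (without KO replicate 1) to 0.24 (without KO replicate 2). Without centring they were -0.13 and 0.05, beside -0.08 and -0.05 over all genes. In centred H3K4me3 values, both KO libraries were above both WT libraries for 11 of the 23, beside 17.1% of all genes. They were below for 3, beside 17.6%. For H3K9ac the counts were 4 and 4, beside 16.6% and 14.6%. The difference from all genes was not tested.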

How the data were processed

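The 16 ChIP libraries were analysed as the authors deposited them, and the 16 input libraries named in the labels were not analysed here. The authors used BWA to align 50 bp single-end reads to mm10 and MACS2 to call peaks. Each peak of the deposited lists has a fold enrichment (a ratio), a −log10 p-value, a −log10 q-value, a score and a summit offset. Their largest p is 0.01. The members and gene lists were chosen with earlier results of these data known.

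Positions were set against GENCODE M21 (mm10) and are counted from 1. The strongest promoter peak was the one with the highest fold enrichment that overlapped the window by at least 1 bp. It was taken in each library separately, so a difference can compare peaks at different starts of a gene. Log2 fold enrichment was centred on each library's median and fitted with limma 3.58.1 in R 4.3.3 (lmFit, eBayes, Benjamini-Hochberg adjustment over all genes tested), after the fit had been tested on simulated data. Covered bases of Kat2b were compared with a two-sided exact permutation test. Other steps used Python 3.11.15. Depth is unknown, so no counting error can be given. Named genes are the members, other subunits called by limma or lacking H3K9ac, genes with a TSS within 1 kb of a member's, and genes within 10 kb of Kat2a or Kat2b. Genes from the lists of cell type markers are named for the check of the tissue, and Taf9b was named after its values were seen. Alternatives were the replicate block, other scalings, thresholds, overlaps and TSS sets, equal list lengths and each library left out. Those on other subunits, on the total number of peaks and on replicate 1 of H3K27ac and H3K4me1 were chosen after seeing the data.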

Additional observations from a re-analysis of the deposited data

How the results depend on the processing

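Replicate numbers are shared between genotypes without a stated batch. The correlation of same-numbered deviations was 0.13 for H3K9ac and 0.00 for H3K4me3 across genes, and with the replicate block 0 genes passed for either mark and the median differences of the members were again 0.11 and -0.04. For H3K9ac cover of Kat2b, the replicate block gave 171 and 278 bp within the numbers and 224 bp in the mean (exact permutation p = 0.50). That p is the smallest this pairing allows.

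Counts of members with H3K9ac or H3K4me3 promoter peaks were 9 or 10 under every alternative. With all 4 libraries in place of replicate 2, H3K27ac was listed for 0 members. Leaving out 1 library at a time gave 0 to 2 H3K9ac calls, 2 without WT replicate 1, neither a member, and median H3K4me3 differences of -0.27 (without WT replicate 1) to 0.19 (without KO replicate 1). A lone library is then assumed to vary like the others.

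The sign of small H3K9ac differences turned when 1 library was left out, with ranges of -0.07 to 0.11 for Kat2b, -0.51 to 0.25 for Tada1, -0.12 to 0.66 for Tada2a, -0.47 to 0.05 for Tada2b and -0.34 to 0.06 for Mbip. Supt20 ran from -0.63 to 0.00 and Zzz3 from 0.04 to 0.67. Without centring Kat2b was at -0.07. For H3K4me3 the ranges were -0.08 to 0.75 for Kat2b, -0.14 to 0.12 for Tada1, -0.51 to 0.35 for Tada2a, -0.40 to 0.95 for Tada3 and -0.07 to 0.49 for Zzz3. Zzz3 was at -0.21 with the outermost TSS only, and Tada1 at 0.01 with absent peaks set to 1. None of these passed, and the cause was not tested. The adjusted p of a member was between 0.771 and 1 in all fits. No H3K9ac peak entered the excised interval of Kat2a at any threshold tried. With 2 libraries of 1 pool per genotype and unknown depth, changes may be missed. The smallest change that could be detected was not measured, since the changes in the simulated data were larger than any difference of a member. The H3K9ac difference of 0.93 at Yeats2 did not pass.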
